A study of Mus musculus with 6 samples.

Results

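Heat shock proteins and chaperones were examined in mouse dental papilla cells (mDPCs). These cells form the mesenchyme of the tooth germ, from which odontoblasts arise. Members were the protein-coding genes of the deposited table named as Hspa, Hspb, Hsp90, Dnaja, Dnajb, Dnajc, Bag or Cct genes, with *Hspd1*, *Hspe1*, *Hsph1*, *Hsf1* and *Hsf2*. They numbered 87 of 31613 genes, of which 63 encode mainly cytosolic or nuclear proteins, 14 proteins of the endoplasmic reticulum (ER) and 10 mitochondrial proteins. RNA was sequenced from 3 *Dmp1*-Cre;*Setd2* fl/fl libraries (cKO) and 3 control libraries, all from mDPCs of mice at postnatal day 6 on a C57BL/6J background. Each library pooled RNA of 3 biological replicates. In cKO mice both alleles of *Setd2*, which encodes the enzyme that trimethylates H3K36, are deleted where *Dmp1*-Cre is active, which is chiefly in odontoblasts and osteocytes, so that cells in which it is not active keep the gene. The methods give *Setd2* fl/fl mice without Cre as controls, and the labels call them wild type.

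Chaperones bind unfolded stretches of proteins and release them to fold. In the cytosol, HSP70 proteins work with J proteins (the Dnaj genes), which deliver clients, and with nucleotide exchange factors such as the BAG proteins and HSPH1, while HSP90 takes up late folding intermediates and the TRiC ring, built of CCT subunits, folds actin and tubulin. The transcription factor HSF1 binds heat shock elements and raises the stress-inducible members. The ER has its own HSP70 (HSPA5, or BiP) and HSP90 (HSP90B1, or GRP94), on which cells that secrete much collagen, such as odontoblasts, rely, and the mitochondrial matrix has HSPA9 and the chamber of HSPD1 and HSPE1.

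The sequences just upstream of 5 members show where such elements lie in this gene family, because the heat-inducible *Hspa1a* and *Hspa1b* and the ER gene *Hspa5* are central to the values below. They are the 250 bases before the RefSeq start site on GRCm38.p6, written 5′ to 3′ on the gene's strand, with the matched elements in capitals. A heat shock element of 2 units was searched as GAANNTTC or TTCNNGAA, where N is any base, and one of 3 units as alternating GAA and TTC with 2 bases between neighbours, starting with either, so that every match of 3 units also holds one of 2. The ER stress response element was searched as CCAAT and CCACG with 9 bases between them, on both strands. In *Hspe1* the capitals cover 2 overlapping elements of 3 units, starting 89 and 84 bases before the start site. In *Hspa1a* and *Hspa1b* they mark a single element of 2 units, 104 bases before it. In *Hspa5* they mark an ER stress response element 65 bases before the start site, and in *Hsp90b1* such elements lie 212 and 107 bases before it.
Hspe1, plus strand, chr1:55087898-55088147: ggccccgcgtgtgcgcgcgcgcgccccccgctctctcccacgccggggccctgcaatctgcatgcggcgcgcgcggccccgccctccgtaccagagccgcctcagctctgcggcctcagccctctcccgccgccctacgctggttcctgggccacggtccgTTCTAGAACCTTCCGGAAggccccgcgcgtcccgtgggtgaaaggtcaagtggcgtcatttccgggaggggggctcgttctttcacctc
Hspa1a, minus strand, chr17:34972157-34972406: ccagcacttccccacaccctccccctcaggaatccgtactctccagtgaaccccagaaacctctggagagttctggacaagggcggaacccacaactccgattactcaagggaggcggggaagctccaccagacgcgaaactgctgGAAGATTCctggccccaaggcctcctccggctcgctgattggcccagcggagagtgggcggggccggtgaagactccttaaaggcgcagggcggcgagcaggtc
Hspa1b, minus strand, chr17:34959239-34959488: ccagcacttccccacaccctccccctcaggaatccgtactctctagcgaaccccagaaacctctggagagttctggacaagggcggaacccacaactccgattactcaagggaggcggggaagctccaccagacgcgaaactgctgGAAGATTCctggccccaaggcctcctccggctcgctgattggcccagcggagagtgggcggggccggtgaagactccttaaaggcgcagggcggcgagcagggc
Hspa5, plus strand, chr2:34771840-34772089: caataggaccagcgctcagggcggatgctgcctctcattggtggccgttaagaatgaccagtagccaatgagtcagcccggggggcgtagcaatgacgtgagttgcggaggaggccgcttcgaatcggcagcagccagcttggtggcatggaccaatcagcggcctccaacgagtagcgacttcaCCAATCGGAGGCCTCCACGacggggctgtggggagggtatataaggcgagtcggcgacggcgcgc
Hsp90b1, minus strand, chr10:86705445-86705694: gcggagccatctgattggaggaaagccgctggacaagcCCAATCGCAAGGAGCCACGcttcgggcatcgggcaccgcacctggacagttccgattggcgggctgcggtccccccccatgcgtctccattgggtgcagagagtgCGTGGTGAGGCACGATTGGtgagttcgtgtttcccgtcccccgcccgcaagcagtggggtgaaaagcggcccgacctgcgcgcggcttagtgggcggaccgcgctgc

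Of the 87 members, 70 had a RefSeq window (250 bases before to 50 after the start site) under the same symbol. The element of 3 units was in windows of 4 members, *Hspd1*, *Hspe1*, *Hsph1* and *Dnajb6*, which is 5.71% of these 70, and in 0.603% of all 32851 windows (0.662% of 27025 genes). The element of 2 units was in 19 members (27.1%), and in 15.1% of all windows (17.0% of genes). The ER stress response element was in *Hspa5*, *Hsp90b1* and *Dnajc3* (4.29%), and in 0.119% of all windows (0.137% of genes). A match is a description of letters and not a measured binding site. *Hspd1* and *Hspe1* lie head to head on chromosome 1, and 285 bases of the window at a second RefSeq start of *Hspd1* are shared with the *Hspe1* window, so that both matches there are the same bases. The upstream stretches of *Hspa1a* and *Hspa1b* had 247 of 250 bases in common.

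Counts summed to between 18557647 and 19164358 in cKO libraries and to between 18894240 and 19210750 in control libraries. Values are given as CPM, the counts per library brought to a common scale by edgeR's TMM factors, and changes as the log2 fold change of cKO over control from edgeR's quasi-likelihood test. The study's thresholds, applied here to edgeR's values, ask for an unadjusted p under 0.05 and for 0.58 or more on the log2 scale in either direction. Calls at an adjusted p under 0.05 (Benjamini-Hochberg, over all 16519 genes tested) are given apart from these. *Setd2* itself was at 102, 98.5 and 96.0 CPM in cKO libraries and at 98.0, 96.5 and 92.0 CPM in control libraries, a count over the whole gene and all cells that does not check the genotype. The 7 odontoblast markers listed for a check of the cells summed to 5821, 3929 and 36570 CPM in cKO replicates 1, 2 and 3, against 71490, 73770 and 81340 CPM in the control libraries, and 6 of the 7 were lower. The 6 markers of dental epithelium, which is not part of the papilla, summed to 6567, 1993 and 45740 CPM in cKO replicates 1, 2 and 3 and to 6565, 2434 and 27670 CPM in control replicates 1, 2 and 3. Replicate 3 of both groups therefore stood apart, and no marker of either list was at 0 in every library. What counted as a biological replicate is not given in the sources used here. The study's list of animals holds fewer mice per genotype than 3 pools of 3 different mice would need, so the pools may share mice. A p-value thus reflects only how far these libraries spread, and part of that may be technical.

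The members past the thresholds, 2 higher and 2 lower, were cytosolic, as were most of the members tested. *Hspa1a* and *Hspa1b*, the heat-inducible HSP70 genes, were higher in cKO libraries, and *Hspa2*, an HSP70 best known from male germ cells, and *Dnajc6*, which encodes auxilin, the J protein that uncoats clathrin vesicles, were lower. Of the 87 members, 78 passed the filter on low counts, made up of 54 cytosolic, 14 ER and 10 mitochondrial genes. The 2 of 78 members called higher stand against 1.1% of all genes tested, and the 2 of 78 called lower against 2.71%. In the main edgeR fit, on all 6 libraries, 0 members were higher and 0 lower at an adjusted p under 0.05. At an unadjusted p under 0.05 it had 4 members higher and 2 lower, against 3.17% and 4.41% of all genes tested. At an adjusted p under 0.05 DESeq2 called 0 members higher and 1 lower (0.145% and 0.708% of all genes), and limma voom with quality weights 3 and 3 (2.4% and 5.98%). With cKO replicate 2 left out, 1 member (*Hspa1b*) was called higher and 1 (*Hspa2*) lower at the study's thresholds, against 0.49% and 1.66% of all genes. With cKO replicate 3 left out 4 were higher, *Dnajb9* and *Dnajc2* being added, and 2 lower, against 4.01% and 6.88% of all genes. With replicate 3 of both groups left out 5 members were higher at these thresholds (4.49% of all genes), and 2 were higher and 2 lower at an adjusted p under 0.05 (2.33% and 4.48%), while voom called 4 higher at the study's thresholds (2.69%). Voom added *Hspa1l* and *Dnajb13*, with at most 1.30 and 8.36 CPM in any library, the latter named after its values were seen. Both fits had 2 members lower at these thresholds (*Dnajc6* and *Hspa2*), for which no share of all genes was computed. All cKO libraries lay above all control libraries in 10 members and below them in 6, against 7.26% and 7.98% of all genes tested.

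The compartments are described by counts and medians, and the difference between them was not tested. Among cytosolic and nuclear members 39 of 54 (72.2%) had a positive log2 fold change and the median was 0.20, in the ER 6 of 14 (42.9%) with a median of -0.01, and in mitochondria 9 of 10 (90.0%) with a median of 0.20. Over all genes tested 52.6% were positive with a median of 0.02. In all 3 compartments cKO replicate 2 was the highest library. Set against the mean of the control libraries, the median cytosolic member was at 0.08, 0.26 and 0.07 on the log2 scale in cKO replicates 1, 2 and 3, against -0.03, 0.01 and 0.05 in the controls. The median mitochondrial member was at 0.10, 0.48 and 0.09 in the cKO libraries, against 0.08, 0.01 and -0.09 in the controls. Without cKO replicate 2 the median log2 fold change was 0.09 for cytosolic and 0.05 for mitochondrial members, and without cKO replicate 3 the mitochondrial median was 0.29. The ER median was -0.08 without cKO replicate 2 and turned positive, at 0.01, without cKO replicate 1 or cKO replicate 3, and at 0.02 without replicate 3 of both groups. The library of cKO replicate 2 also had the fewest counts from odontoblast markers, and the most from neutrophil markers (67.2, 134 and 4.67 CPM in cKO replicates 1, 2 and 3, against 20.5, 11.7 and 3.46 CPM in control replicates 1, 2 and 3) and macrophage markers (1231, 1550 and 461 CPM, against 885, 989 and 586 CPM). Of the 5 neutrophil markers tested 2 were higher, and of the 6 macrophage markers 0. Their part in the chaperone values was not tested, and in bulk RNA fewer cells of a type and less RNA per cell cannot be told apart.

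**Figure D1:**
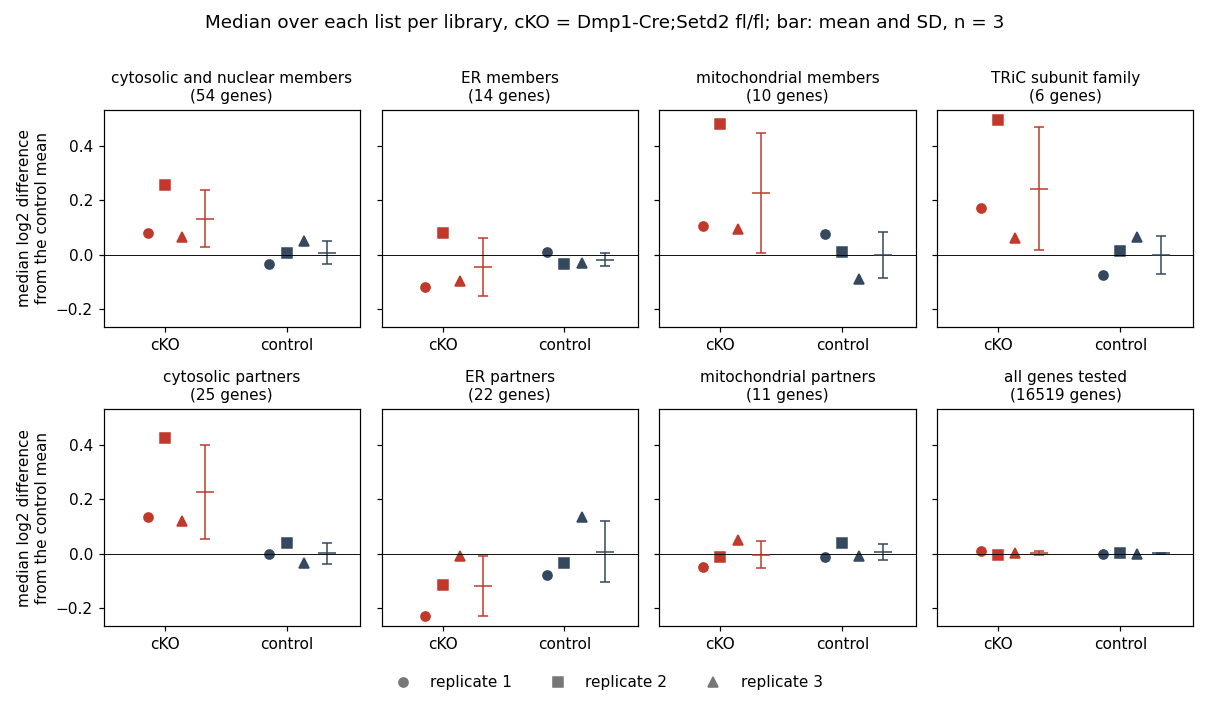
Median log2 difference from the control mean (vertical axis) over the tested genes of each list, for each of the 3 *Dmp1*-Cre;*Setd2* fl/fl (cKO) and 3 control libraries, with the mean and SD of each group and a symbol for each replicate number. cKO replicate 2 lay at 0.26 for cytosolic, 0.08 for ER and 0.48 for mitochondrial members, above the other libraries in each, while the medians over all 16519 genes lay near 0 in every library.

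*Hspa1b* (ENSMUSG00000090877, chr17:34956436-34959238 on GRCm38, minus strand) had 14.0, 25.9 and 15.3 CPM in the cKO libraries, against 9.39, 7.90 and 11.2 CPM in the control libraries. Every cKO library was above every control library, with replicate 2 far above the rest. The mean was 18.4 ± 6.50 CPM in cKO and 9.49 ± 1.64 CPM in control libraries (SD, n = 3 each), and the log2 fold change 0.96 (standard error 0.27, adjusted p = 0.625). *Hspa1a* (chr17:34969190-34972156, minus strand), its near-identical neighbour, had 9.81, 14.5 and 7.87 CPM in cKO and 5.78, 6.69 and 6.80 CPM in control libraries. Again the groups did not overlap, but cKO replicate 3 was close to the controls. The log2 fold change came to 0.74 (standard error 0.25, adjusted p = 0.626). *Hspa1b* kept its call at the study's thresholds in all 14 alternative fits (log2 fold change 0.63 to 1.21). *Hspa1a* lost its call when control replicate 1, control replicate 2 or cKO replicate 2 was left out (log2 fold change 0.67, 0.77 and 0.46). Reads are hard to assign between the copies, since 1074 windows of 150 bases, 38.1% of those in the *Hspa1a* transcript and 40.5% of those in *Hspa1b*, are in both. The study counted only reads with a mapping quality, a score of how surely a read is placed, of at least 10. Reads from the shared stretches may thus be missing from both counts, and how they would divide between the copies is uncertain.

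No other gene of the heat shock response passed the thresholds. *Hsf1*, which encodes the main heat shock factor, had 52.3, 40.9 and 58.5 CPM in cKO libraries and 58.5, 61.0 and 60.2 CPM in control libraries (log2 fold change -0.24, standard error 0.14, adjusted p = 0.699), and *Hsf2*, its relative, differed by 0.10 on the log2 scale. *Hsph1*, an HSP110 that exchanges nucleotide on HSP70, was at -0.17, and *Bag3*, which links HSP70 to autophagy, at 0.05. *Dnajb1*, the stress-inducible J protein of the HSP70 pair, had 53.8, 61.0 and 54.1 CPM in cKO libraries and 46.4, 49.8 and 49.2 CPM in controls, a difference of 0.22 (standard error 0.10, adjusted p = 0.667) without overlap of the groups. The small heat shock proteins *Hspb1* and *Hspb8*, which hold unfolded proteins without ATP, were at 0.33 and 0.42, with overlapping groups. The 11 immediate early genes listed, which respond quickly to tissue handling, summed to 252, 256 and 266 CPM in cKO libraries and to 417, 431 and 215 CPM in control libraries. The sum in cKO replicate 3 was above that of control replicate 3, and the sums in the other cKO libraries lay between the lowest and the highest control. The part of handling in the heat shock values was not tested.

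*Hspa2* (chr12:76404176-76406938, plus strand) had 7.56, 10.2 and 18.5 CPM in cKO libraries, against 30.0, 29.0 and 33.1 CPM in control libraries. All cKO libraries lay below the controls, and replicate 3 was the nearest to them. The mean was 12.1 ± 5.71 CPM in cKO and 30.7 ± 2.17 CPM in control libraries (SD, n = 3 each), and the log2 fold change -1.34 (standard error 0.32, adjusted p = 0.558). In a fit blocked by replicate number the log2 fold change was -1.43 with an adjusted p of 0.0404, which made *Hspa2* the only member called lower there, against 0.799% of all genes tested. The call at the study's thresholds held in all 14 alternative fits (log2 fold change -1.83 to -1.09), and without cKO replicate 3 the adjusted p was 0.00206. *Dnajc6* (chr4:101496648-101642799, plus strand) had 2.77, 3.13 and 8.15 CPM in cKO libraries and 10.6, 9.26 and 11.9 CPM in control libraries. The groups did not overlap, and replicate 3 was again the cKO library nearest to the controls. The log2 fold change of *Dnajc6* was -1.18 (SE 0.42, adjusted p = 0.626), and -1.31 (SE 0.27, adjusted p = 0.0723) in the fit blocked by replicate number. It lost its call when control replicate 1, control replicate 3, cKO replicate 1 or cKO replicate 2 was left out (log2 fold change -1.18, -1.09, -0.91 and -0.96), and had an adjusted p of 0.00496 without cKO replicate 3. The summed odontoblast markers given above were also less reduced in cKO replicate 3 than in replicates 1 and 2, and their part in the values of both genes was not tested.

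**Figure D2:**
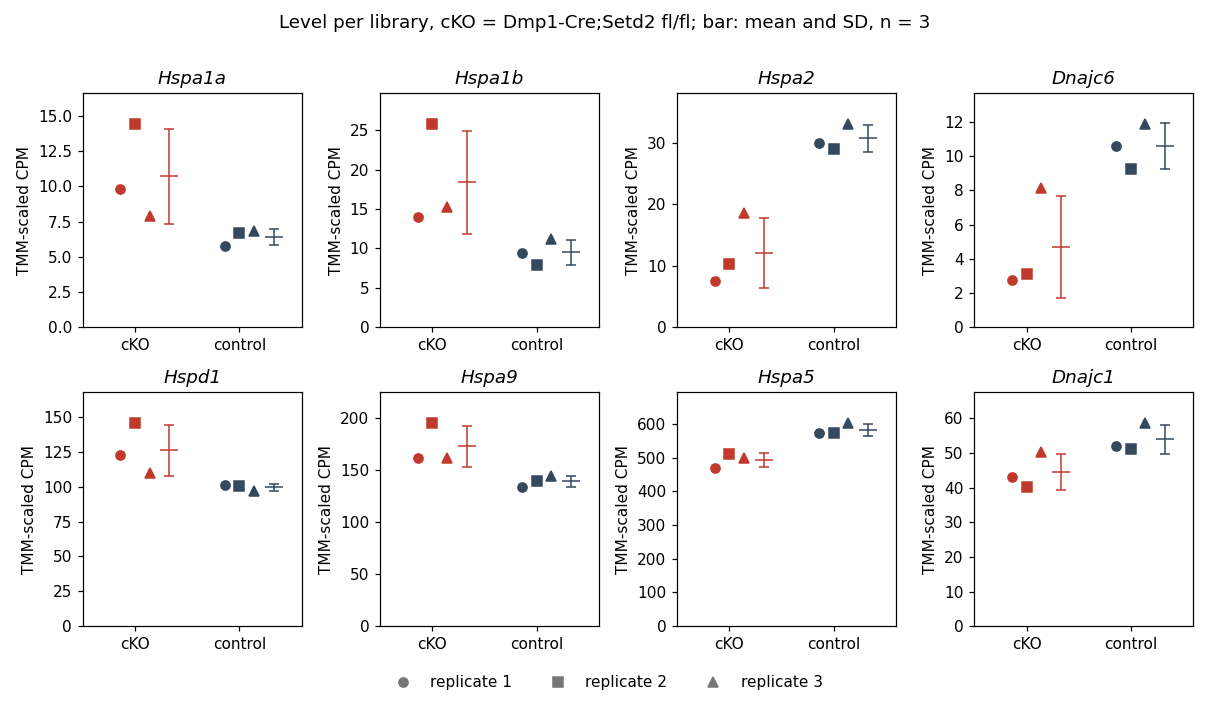
Level in TMM-scaled CPM (vertical axes, from 0) of 8 members in each *Dmp1*-Cre;*Setd2* fl/fl (cKO) and control library, with the mean and SD of each group (n = 3) and a symbol for each replicate number. *Hspa1a*, *Hspa1b*, *Hspd1* and *Hspa9* lay higher in all cKO than in all control libraries with replicate 2 highest in cKO, whereas *Hspa2*, *Dnajc6*, *Hspa5* and *Dnajc1* lay lower in all cKO libraries.

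The constitutive cytosolic machinery was far more abundant and differed little. *Hsp90ab1*, the constitutive HSP90, was the most abundant member per length, at 310 CPM per kb of exon in cKO and 268 CPM per kb in control libraries. It had 1639, 1858 and 1530 CPM in cKO and 1364, 1460 and 1515 CPM in control libraries, without overlap, but cKO replicate 3 was only just above control replicate 3 (log2 fold change 0.21, standard error 0.13, adjusted p = 0.710). *Hspa8*, the constitutive HSC70, followed at 132 CPM per kb in cKO and 114 CPM per kb in control libraries. It had 1159, 1390 and 897 CPM in cKO libraries, against 980, 1058 and 927 CPM in controls, so that the groups overlapped (log2 fold change 0.22, standard error 0.18). *Hsp90aa1*, the inducible HSP90, had 219, 250 and 161 CPM in cKO and 218, 204 and 148 CPM in control libraries, and replicate 3 was the lowest of both groups (log2 fold change 0.14, standard error 0.21). In 25 of the 78 tested members (32.1%) replicate 3 was the lowest library of both groups, near the 27.7% over all genes tested.

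All 6 tested TRiC subunits had a positive log2 fold change, from 0.13 for *Cct7* to 0.33 for *Cct4*, and none passed the thresholds. *Cct2* had 196, 254 and 199 CPM in cKO libraries and 169, 172 and 188 CPM in controls, the only one of these 6 without overlap (log2 fold change 0.29, standard error 0.13, adjusted p = 0.667). The median subunit, set against the control mean on the log2 scale, was at 0.17, 0.50 and 0.06 in cKO replicates 1, 2 and 3, against -0.08, 0.01 and 0.06 in the controls, so cKO replicate 3 did not exceed the highest control library. *Cct6a*, a further subunit, is not protein-coding in the deposited table and was no member. It had 105, 139 and 104 CPM in cKO libraries, against 93.7, 91.0 and 88.7 CPM in controls (log2 fold change 0.35, adjusted p = 0.647). The subunit *Tcp1*, outside the name rule, was at 0.32 with overlapping groups (adjusted p = 0.696).

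Among the J proteins, 40 of 44 were tested, 25 had a positive log2 fold change with a median of 0.08, and *Dnajc6* was the only one called. *Dnajb4*, a cytosolic partner of HSP70, had 26.7, 34.3 and 26.1 CPM in cKO libraries and 25.0, 22.2 and 21.8 CPM in controls, without overlap (log2 fold change 0.33, adjusted p = 0.665). *Dnaja1*, an abundant partner of HSC70, was at 0.31 with cKO libraries at 158, 200 and 131 CPM and control libraries at 141, 140 and 115 CPM, which overlapped. Of the 6 Bag genes 5 were positive, with a median of 0.24. The remaining cytosolic members without overlap, named after their values were seen, were *Bag1* at 0.32 and *Hspa4*, an HSP110, at 0.20, above the controls, and *Dnajc7*, a J protein that binds both HSP70 and HSP90, at -0.08, below them. *Hspb7*, a small heat shock protein of striated muscle, was at -0.97 with at most 1.25 CPM in any library and overlapping groups, and was also named after its values were seen. It passed the thresholds, lower in cKO, only when control replicate 1 was left out. *Hspa1l*, a relative of *Hspa1a* with at most 1.30 CPM in any library, passed them, higher in cKO, without control replicate 3, without replicate 3 of both groups and by voom.

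By edgeR no ER member passed the thresholds or an adjusted p under 0.05, and none had an unadjusted p under 0.05. *Hspa5*, the ER HSP70 whose upstream element is printed above, was the highest ER member per length, at 88.8 CPM per kb in cKO and 105 CPM per kb in control libraries. It had 468, 511 and 500 CPM in cKO libraries, against 572, 574 and 604 CPM in control libraries. Each cKO library was below each control, by more than the range within either group, and the log2 fold change of -0.24 (standard error 0.10) had an adjusted p of 0.662. *Hspa5* was among the 3 members that limma voom with quality weights called lower at an adjusted p under 0.05 (log2 fold change -0.27, adjusted p = 0.0481). *Hsp90b1*, which has 2 such elements upstream, had overlapping groups, with 227, 272 and 226 CPM in cKO libraries and 257, 248 and 243 CPM in controls (log2 fold change -0.04, standard error 0.11). *Dnajc1*, an ER-membrane J protein that stimulates HSPA5, had 43.2, 40.1 and 50.1 CPM in cKO libraries and 51.9, 51.1 and 58.7 CPM in controls, without overlap (log2 fold change -0.28, standard error 0.12, adjusted p = 0.665). *Dnajc16*, a J protein of the ER membrane, was also below the controls in every cKO library, at -0.18.

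*Dnajb9*, which encodes the J protein ERdj4 and is raised by the unfolded protein response, had 34.0, 55.1 and 22.9 CPM in cKO libraries, against 28.2, 25.0 and 24.4 CPM in control libraries. The cKO libraries lay on both sides of the controls (log2 fold change 0.53, standard error 0.30, adjusted p = 0.696). It passed the thresholds without cKO replicate 3 (log2 fold change 0.78, adjusted p = 0.0928), and was at 0.14 without cKO replicate 2. The luminal J proteins *Dnajb11*, *Dnajc3* and *Dnajc10*, which serve folding, limit the kinase PERK and reduce disulfides, were at -0.12, -0.05 and 0.10. *Hspa13*, a microsomal HSP70 relative, was at 0.00 and *Dnajc25* at 0.06.

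No mitochondrial member passed the thresholds, and the groups overlapped in all but *Hspd1* and *Hspa9*. *Hspd1*, the mitochondrial HSP60 (chr1:55077835-55088243, minus strand), had 123, 146 and 110 CPM in cKO libraries, against 101, 101 and 96.8 CPM in control libraries. All cKO libraries lay above the controls (log2 fold change 0.34, standard error 0.13, adjusted p = 0.636). *Hspd1* was among the 3 members that limma voom with quality weights called higher at an adjusted p under 0.05 (log2 fold change 0.30, adjusted p = 0.0384), against 2.4% of all genes. *Hspe1*, its HSP10 lid, had 71.3, 93.2 and 62.5 CPM in cKO and 62.6, 65.9 and 52.6 CPM in control libraries, a log2 fold change of 0.33 of about the same size (standard error 0.17, adjusted p = 0.689), with cKO replicate 3 inside the control range. *Hspa9*, the mitochondrial HSP70 that pulls proteins through the inner membrane, had 162, 195 and 161 CPM in cKO libraries and 134, 139 and 145 CPM in control libraries. Its groups did not overlap (log2 fold change 0.31, standard error 0.12, adjusted p = 0.636). *Dnaja3*, the J protein of HSPA9, was at 0.17 with overlapping groups, and *Dnajc4* was the only mitochondrial member below 0, at -0.12.

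**Figure D3:**
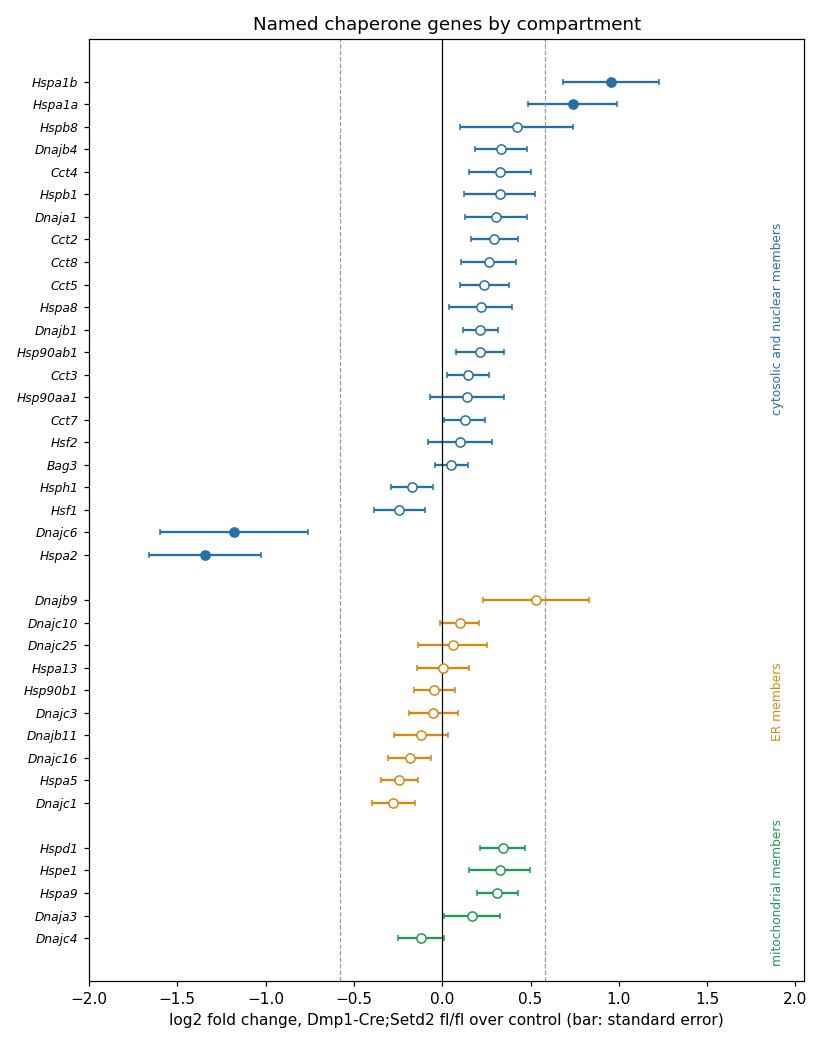
Log2 fold change of *Dmp1*-Cre;*Setd2* fl/fl over control (horizontal axis; bars, standard error) of the named chaperone genes, grouped into cytosolic and nuclear, ER and mitochondrial members. Filled points passed the study's thresholds, whose fold limits are the dashed lines at -0.58 and 0.58, and only *Hspa1b*, *Hspa1a*, *Dnajc6* and *Hspa2* did.

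**Figure D4:**
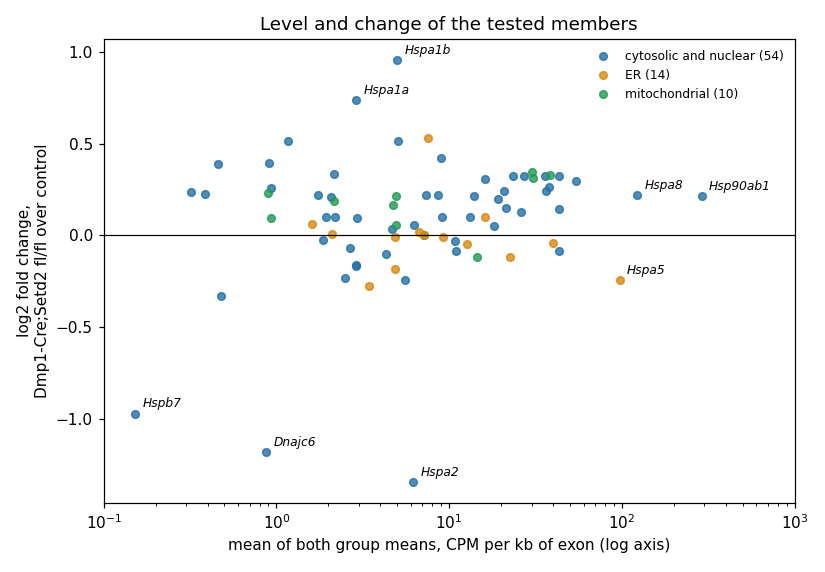
Mean level of both groups in CPM per kb of exon (horizontal log axis) against the log2 fold change of *Dmp1*-Cre;*Setd2* fl/fl over control (vertical axis) for the 78 tested members, coloured by compartment. The most abundant members, *Hsp90ab1*, *Hspa8* and *Hspa5*, lay at 0.21, 0.22 and -0.24, and the called members were at low to middle levels.

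Folding partners outside the name rule were counted from lists of well-known genes. The ER list also holds sensors and transcription factors of the unfolded protein response. The 25 cytosolic partners were mostly cochaperones and prefoldin subunits, with the TRiC subunit *Tcp1* and the small heat shock protein *Cryab* among them. Of these 25, 24 had a positive log2 fold change (median 0.23) and 0 passed the thresholds. A higher level with an unadjusted p under 0.05 was found in 4, against 3.17% of all genes tested. The largest value was that of *Fkbp5*, an HSP90 cochaperone of steroid receptors induced by glucocorticoids, with 31.5, 58.7 and 17.0 CPM in cKO libraries and 19.8, 18.5 and 20.6 CPM in controls (log2 fold change 0.86, standard error 0.41, adjusted p = 0.673). Again cKO replicate 2 was highest and cKO replicate 3 was below every control. Of 22 ER partners 6 were positive (median -0.12) and 1 was called lower, against 2.71% of all genes tested. This was *Hyou1*, the large HSP70 relative of the ER (GRP170), with 57.9, 53.1 and 74.7 CPM in cKO libraries, against 82.8, 86.5 and 145 CPM in control libraries (log2 fold change -0.76, standard error 0.25, adjusted p = 0.626). With the replicate block its adjusted p was 0.0298, and it lost its call when control replicate 3, cKO replicate 1 or cKO replicate 2 was left out (log2 fold change -0.45, -0.71 and -0.66). *Eif2ak3*, which encodes PERK, a stress sensor of the ER, had 28.0, 22.4 and 35.7 CPM in cKO libraries and 38.8, 37.8 and 45.0 CPM in controls, at -0.50 (adjusted p = 0.634, unadjusted p under 0.05). *Serpinh1*, the collagen chaperone HSP47, had 1414, 1353 and 1928 CPM in cKO libraries and 1834, 1937 and 2505 CPM in controls, at -0.42 (adjusted p = 0.673), with replicate 3 the highest of both groups. Of 11 mitochondrial partners 6 were positive (median 0.02) and 0 passed the thresholds, with 0 at an unadjusted p under 0.05.

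The 9 untested members were *Cct6b*, *Cct8l1*, *Dnajb7*, *Dnajb8*, *Dnajc5b*, *Dnajc22*, *Hspb2*, *Hspb3* and *Hspb9*, all cytosolic by their family, with at most 20 counts in any library. Fitted without the filter, none of the 9 had an unadjusted p under 0.05, with log2 fold changes between -3.58 and 1.23 that rest on these few counts. Of the 78 tested, 76 had at least 10 counts in every library.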

How the data were processed

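RNA-seq was analysed from 3 *Dmp1*-Cre;*Setd2* fl/fl and 3 control libraries of mDPCs. The authors deposited a table of whole-number counts per gene, not normalized, made with HISAT2 and HTSeq, and the notes of the submitters add Bowtie2, DESeq2 and GRCm39. The table also holds the authors' own comparison (mean, fold change, log2 fold change, p-values), which was not used. Its positions share a start or end with RefSeq GRCm38.p6 for 11618 of 24510 genes (47.4%) and with a GRCm39 annotation for 396 of 30436 (1.3%), so positions are given as GRCm38.

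edgeR 4.0.16 (R 4.3.3) was used for the comparison, with filterByExpr at its minimum count of 10, TMM scaling and the robust quasi-likelihood F test. Total counts per library were even. The coefficient of variation between libraries was 25.3%, a single value fitted over all genes tested, and for genes of many counts the counting error was small against it. Single members could vary less, as *Hspa5* did, at 493 ± 22 CPM in cKO and 583 ± 18 CPM in control libraries (SD, n = 3 each). Counting error was not small for members of few counts, such as *Hspb7* (4 to 22 counts per library) and *Hspa1l* (8 to 23). Each of the 6 pairs of libraries within a group differed by more than sampling noise. Levels per kb use GENCODE M39 exon lengths, which include every annotated isoform. The script was tested on simulated data. The alternatives tried were each library left out in turn, a replicate block, limma 3.58.1 voom with quality weights, DESeq2 1.42.0, scaling by RLE or by library sizes that omit the 100 highest genes, and the removal of the filter or its tightening to 10 counts in every library. Leaving out replicate 3 of both groups, and the alternatives for the folding partners, were added after the data were examined.

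Members and lists were chosen with earlier results of these data known. Named members were those past the thresholds, the 4 of highest level per kb and the 3 of smallest p in each direction of each compartment, and a fixed list of the best-known members. Replicate numbers come from the labels. Across genes, the deviations of cKO and control replicates 1 from their group means correlated at 0.453, of replicates 2 at 0.465 and of replicates 3 at 0.663. The numbers were therefore taken as pairs in the fit with the replicate block, while the main fit was not paired. However, cKO replicate 1 correlated with control replicate 2 at 0.455, which sets only replicate 3 apart.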

Additional observations from a re-analysis of the deposited data

How the results depend on the processing

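Of 532 values of the 37 tested named members and *Hyou1* under 14 alternatives, 520 kept their call, 12 changed it and 0 reversed in a called direction. Most of these genes had no call in the main fit, so the total says little about how stable the calls were. Of the genes called there, *Hspa1b* and *Hspa2* kept the call in all 14 alternatives, *Hspa1a* and *Hyou1* in 11 and *Dnajc6* in 10. The fitted value of 5 named members near 0 changed sign (*Dnajc3*, *Dnajc25*, *Hsp90aa1*, *Hsp90b1* and *Hspa13*). At an adjusted p under 0.05, DESeq2 called 1 member lower (*Hspa2*), the replicate block 1 lower (*Hspa2*), voom with quality weights 3 higher (*Hspa1a*, *Hspa1b*, *Hspd1*) and 3 lower (*Dnajc6*, *Hspa2*, *Hspa5*), and the fit with replicate 3 of both groups left out 2 higher and 2 lower, against 2.33% and 4.48% of all genes in that fit. At the study's thresholds voom called 4 members higher (2.69% of all genes) and the fit with replicate 3 of both groups left out 5 (4.49%). Of 58 folding partners, those called in either direction numbered 2 by DESeq2, 3 by voom and 6 with replicate 3 of both groups left out, against 1. The share of all genes called lower at these thresholds was not computed for these fits, nor either share for DESeq2. The counts are therefore not read as a result about the partners. The share of all genes called higher was larger by voom (2.69%) and with replicate 3 of both groups left out (4.49%) than in the main fit (1.1%). The cause of these differences was not tested. The replicate block changed no other call of a named member. *Hspb7*, outside the naming rule and not counted here, passed the study's thresholds without control replicate 1.

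With each library left out in turn, 1 to 4 members were higher and 1 to 2 lower at the study's thresholds. Between 0 and 2 lower members passed an adjusted p of 0.05, and 0 to 7 folding partners were called. The 4 higher members and the 7 partners came without cKO replicate 3, where 4.01% of all genes were higher and 6.88% lower. Without cKO replicate 2 these shares were 0.49% and 1.66%. For the other fits with a library left out, and at adjusted p in any of them, no share over all genes was computed. Those counts are therefore not read as a result about the members or partners. The median log2 fold change of cytosolic members ran between 0.0896 without cKO replicate 2 and 0.20 without cKO replicate 1. With 3 libraries a group, the SE was 0.10 for *Hspa5*, 0.13 for *Hsp90ab1* and 0.18 for *Hspa8*, which are abundant members. Differences as small as the compartment medians could therefore not be resolved gene by gene.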
